A study of Mus musculus with 6 samples.

Results

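The genes described here encode the digestive enzymes of the lysosome, its membrane proteins and the proton pump that acidifies it. A list of 44 such genes was matched to the array by gene symbol. Of these, 41 had a probe set that the platform annotation ties to a single gene symbol, and the probe set with the highest mean over the 6 arrays stood for each gene. The other 3, Ctso, Cd63 and Atp6v0c, were not analysed here. After the filter on low signals, 40 of the 41 remained, out of 8326 genes tested on the whole array, and Gla fell below it.

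RNA came from the aorta of C57BL/6J mice, an inbred strain with no engineered allele named in the labels, and all mice were males where a sex was stated. The high fat group had eaten a high fat diet for 16 to 18 weeks, started at 10 weeks of age in replicates 2 and 3, and the control group ate regular chow. Chow replicates 2 and 3 were aged 26 to 28 weeks. The label of high fat replicate 1 gives mice of 16 to 20 weeks, without saying whether this was at collection, which would not fit a 16 to 18 week diet begun at 10 weeks, and that of chow replicate 1 gives no age. Each group had 3 Affymetrix arrays, and each array carried RNA pooled from 3 aortas after the outer fibrous coat and the surrounding fat had been taken off, so a value is an average over animals and n = 3 pools per diet.

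Lysosomes break down protein, glycan and lipid that reach them by endocytosis, phagocytosis and autophagy. Their hydrolases work at an acid pH, which the vacuolar proton pump keeps up by moving protons across the membrane at the cost of ATP. In the artery wall the cathepsins are known as enzymes that can cut elastin and collagen, and lysosomal acid lipase as the enzyme that frees cholesterol from lipoprotein particles taken up by macrophages. Many lysosomal genes carry the palindrome CACGTG near their start, the core of the sites bound by TFEB and its relatives.

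Promoters were searched for this core because it is the sequence feature these genes are best known to share. RefSeq promoter windows (build GRCm38.p6, 250 bases before to 50 after the start) were found for 35 of the 41 genes. CACGTG, which reads the same on both strands, occurred in 12 of the 35 windows (34.3%), against 12% of the 6738 tested genes with a window and 8.09% of all 27025 genes in the table. The longer palindrome TCACGTGA, which contains the core, occurred in 6 (17.1%), against 2.24% and 1.12%. The 100 bases before the start are shown for 4 genes with the core, chosen to cover a membrane protein, a channel, a pump subunit and a protease. The same stretch follows for the 4 genes with the smallest p-values in the diet comparison, whose windows held no match. Capitals mark each CACGTG.
Lamp1, chr8:13159061-13159160, plus strand: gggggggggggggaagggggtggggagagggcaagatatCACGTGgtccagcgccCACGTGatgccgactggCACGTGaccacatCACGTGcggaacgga
Mcoln1, chr8:3500419-3500518, plus strand: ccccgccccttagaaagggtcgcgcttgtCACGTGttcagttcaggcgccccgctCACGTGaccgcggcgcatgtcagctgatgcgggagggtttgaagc
Atp6v0b, chr4:117887330-117887429, minus strand: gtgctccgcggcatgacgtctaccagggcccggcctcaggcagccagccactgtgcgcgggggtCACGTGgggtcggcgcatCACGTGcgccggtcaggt
Ctsd, chr7:142387828-142387927, minus strand: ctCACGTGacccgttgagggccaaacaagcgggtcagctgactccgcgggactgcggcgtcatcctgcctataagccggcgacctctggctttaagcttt
Ctsz, chr2:174439040-174439139, minus strand: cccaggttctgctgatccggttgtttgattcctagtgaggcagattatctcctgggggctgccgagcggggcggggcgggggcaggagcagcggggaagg
Ctss, chr3:95526686-95526785, plus strand: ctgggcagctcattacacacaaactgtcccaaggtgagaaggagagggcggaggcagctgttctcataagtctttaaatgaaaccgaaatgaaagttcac
Lipa, chr19:34527475-34527574, minus strand: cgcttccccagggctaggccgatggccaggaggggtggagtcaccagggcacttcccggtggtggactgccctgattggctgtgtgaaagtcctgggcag
Atp6v1e1, chr6:120822699-120822798, minus strand: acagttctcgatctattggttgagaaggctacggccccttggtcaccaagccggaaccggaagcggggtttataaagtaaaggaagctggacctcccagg
Lamp1 held 4 copies of the core within 100 bases of its start, and Mcoln1 and Atp6v0b held 2 each. A match is a run of letters and not a measured binding site.

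The labelled tissue was checked against marker genes. Smooth muscle markers were strong on every array: the signal of Acta2, smooth muscle actin, was 8386 ± 946 with high fat diet and 8709 ± 1325 with chow, and that of Myh11, smooth muscle myosin, was 3470 ± 324 and 3787 ± 151 (SD, n = 3 pools each, as for every mean below). All 8 endothelial markers passed the filter on low signals. Markers of other cells were present too. Ucp1, a marker of brown adipocytes, had 3480 ± 283 with high fat diet and 2479 ± 317 with chow. The summed signal of 10 cardiac muscle markers ran from 919 to 6149 on the high fat arrays and from 927 to 3124 on the chow arrays. In pooled tissue a change in the number of cells of a type and a change in RNA per cell cannot be told apart.

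None of the 40 lysosomal genes passed the threshold of the diet comparison, which was an adjusted p of 0.05 in limma after Benjamini-Hochberg adjustment over 13575 probe sets. Of all 8326 genes 5 passed (0.0601%). The smallest adjusted p among the 40 was 0.580, that of Ctsz. At an unadjusted p under 0.05 there were 4, all with higher means on high fat diet: the cathepsins Ctsz and Ctss, the acid lipase Lipa and the pump subunit Atp6v1e1. That is 10% of the 40, where 4.28% of all genes tested had such a p in that direction. In the other direction there were 0, against 2.7%. Which genes these were depended on the arrays. Leaving out high fat replicate 2 kept Ctsz alone, where 2.61% of all genes had such a p, and leaving out high fat replicate 3 kept Ctsz and Lipa, where 5.2% did. Without high fat replicate 1, Ctss, Lipa and Atp6v1e1 were left (5.08% of all genes). Without chow replicate 1, Ctss and Ctsz were left (3.44%), and without chow replicate 2 the genes were Lipa, Psap and Atp6v1e1 (3.15%). Without chow replicate 3, Atp6v0b joined the 4 (5.08%) and Gaa had such a p in the lower direction, where 2.31% of all genes did. Setting the arrays to equal medians left Ctsz and Lipa (3.25%), as did dropping the variance trend (4.07%). In several of these settings the share of lysosomal genes was close to that of all genes.

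Over all 41 genes, 24 (58.5%) had a higher mean on high fat diet and 17 a lower one, where 50.9% of all genes tested had a higher mean. A fold change is given as the difference of mean log2(signal + 6), high fat minus chow, which understates the change of weak signals. The median log2 fold change of the 41 was 0.07, with a range from -0.31 for Lamp2 to 0.53 for Ctss, while the median of all genes tested was 0.01. Leaving out high fat replicates 1, 2 and 3 in turn gave 0.12, 0.04 and 0.03, and leaving out chow replicates 1, 2 and 3 gave 0.01, 0.10 and 0.04. The median of all genes tested then ran from -0.01 without chow replicate 1 to 0.03 without high fat replicate 3. Equal array medians gave 0.02, where the median of all genes tested was -0.04. For 4 of the 41 genes (9.76%) the diets did not overlap, that is, each array of a diet exceeded each array of the opposite one. Of all genes tested, 12.6% had no overlap in either direction, so the lysosomal genes were not above the background. Ctsz and Lipa were higher on high fat diet, where 6.79% of all genes were, and Ctsl and Atp6v0d1 were lower, where 5.78% were. With equal array medians Atp6v0a1 was the gene without overlap on the higher side in place of Ctsz and Lipa.

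**Figure D1:**
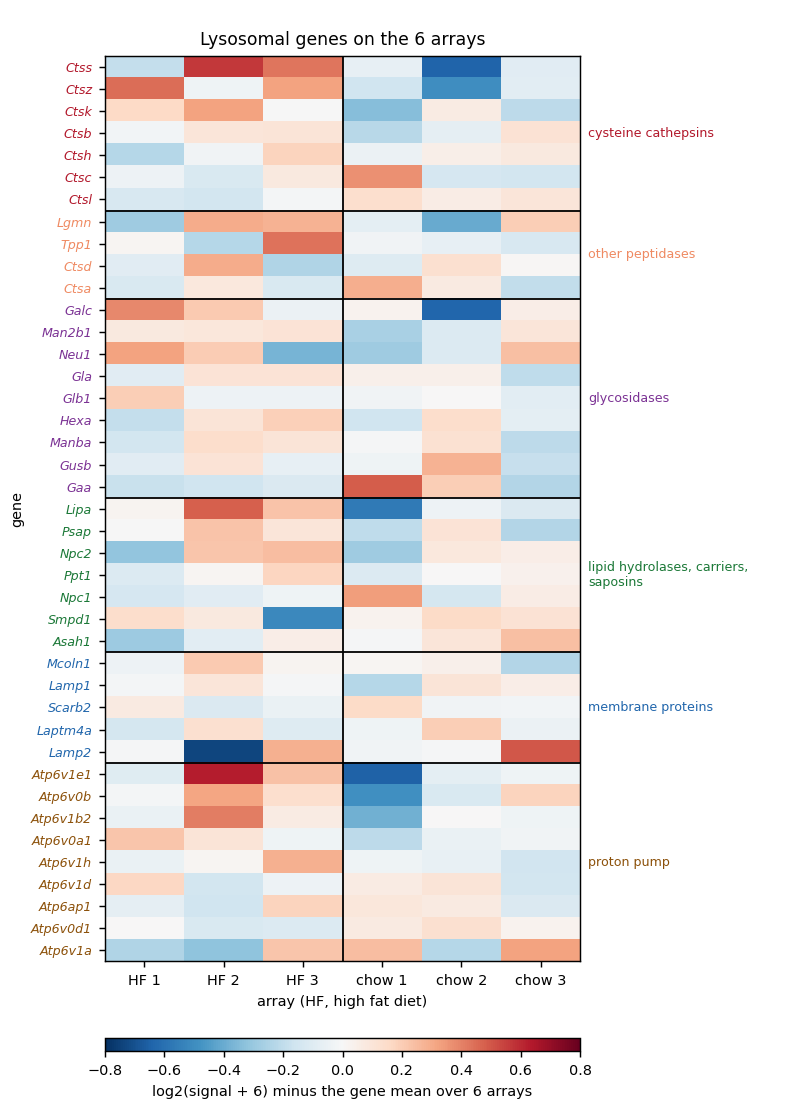
Each row is 1 of the 41 lysosomal genes and each column 1 of the 6 arrays. Colour gives log2(signal + 6) minus the mean of that gene over the 6 arrays, red above and blue below. Genes are grouped by role and, within a role, ordered by the diet difference. Ctss and Atp6v1e1 are among the darkest red rows on high fat replicate 2, where Lamp2 is the darkest blue.

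The cysteine cathepsins, which cut protein with a cysteine at their active site, were spread on both sides of 0. Of 7 genes, 4 had higher and 3 lower means with high fat feeding, and the middle log2 fold change was 0.12. It was -0.03 when all probe sets of a gene were averaged, because the gene in the middle of the order, Ctsb, then changed sign.

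Ctsz encodes cathepsin Z, an enzyme that trims single residues from the carboxyl end of proteins. Its signals were 1192, 849.6 and 1092.5 on the high fat arrays and 781, 616 and 822 on the chow arrays. All 3 high fat arrays lay above all 3 chow arrays, the nearest pair being high fat replicate 2 and chow replicate 3. The means were 1045 ± 176 and 739 ± 109, a log2 fold change of 0.49 (limma SE 0.17, adjusted p = 0.580). Further readings of Ctsz came from its other probe sets, at 0.42 and 0.57, in the same direction. The diets overlapped in the former and not in the latter (unadjusted p = 0.00084, adjusted p = 0.299, limma).

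Ctss encodes cathepsin S, an elastin-cutting protease of macrophages and other antigen-presenting cells, which stays active near neutral pH. Its signals were 279.9, 476 and 432 on high fat diet and 306, 203 and 301 on chow. High fat replicates 2 and 3 were the highest arrays, chow replicate 2 was the lowest, and high fat replicate 1 lay within the chow range. The log2 fold change was 0.53 (limma SE 0.23, adjusted p = 0.679). It was 0.34 without chow replicate 2, where the unadjusted p was no longer under 0.05.

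Ctsk encodes cathepsin K, a collagen- and elastin-cutting protease known from osteoclasts, and is the next protein-coding gene to Ctss in the RefSeq order. It had 143, 161 and 127.5 on high fat diet against 99.5, 134 and 109.5 on chow. The groups overlapped only in chow replicate 2, which lay above high fat replicate 3, and the log2 fold change was 0.32 (limma SE 0.18, adjusted p = 0.752). Ctsl, whose product cathepsin L also cuts matrix proteins, had a lower mean on high fat diet. It had 987.5, 974 and 1067 on high fat diet and 1184.5, 1126 and 1153 on chow, with no overlap, and a log2 fold change of -0.19 (limma SE 0.12, adjusted p = 0.786). The fit gave this difference a 95% interval from -0.45 to 0.07.

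The remaining cysteine cathepsins lay close to 0. Ctsb, cathepsin B, had 3156 ± 158 on high fat diet and 2918 ± 349 on chow, a log2 fold change of 0.12, and its other 3 probe sets had 0.04, -0.01 and -0.25. Ctsc, which activates the serine proteases of immune cell granules, and Ctsh, an aminopeptidase, had log2 fold changes of -0.06 and -0.05. Their 95% intervals, -0.44 to 0.33 and -0.37 to 0.27, include changes in both directions.

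Of the other 4 lysosomal peptidases 2 had higher and 2 lower means, a median log2 fold change of 0.06 that was -0.04 without high fat replicate 2, and none passed the test. Lgmn encodes legumain, which cuts after asparagine and matures several cathepsins. It had 201, 304.5 and 300.1 on high fat diet and 233.5, 185 and 284 on chow, a log2 fold change of 0.19 (limma SE 0.21, adjusted p = 0.881). It was 0.38 without high fat replicate 1, 0.09 and 0.10 without replicates 2 and 3, 0.04 without chow replicate 2 and 0.34 without chow replicate 3. As for Ctss, high fat replicates 2 and 3 were the highest arrays and chow replicate 2 was the lowest.

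Tpp1, a tripeptidyl peptidase, had 892, 750.2 and 1193 on high fat diet and 864, 844 and 805.5 on chow. Its log2 fold change was 0.15 (limma SE 0.17, adjusted p = 0.882), and a second probe set had -0.09. High fat replicate 3 stood above the other 5 arrays, and without it the log2 fold change of 0.15 became -0.03. Ctsa, a carboxypeptidase that also protects the sialidase and beta-galactosidase from breakdown, had 461.5, 534 and 461 against 615, 528 and 437.5. Its log2 fold change of -0.11 (limma SE 0.16, adjusted p = 0.912) became 0.01 without chow replicate 1. Ctsd, the aspartic protease cathepsin D, had 1944 ± 385 on high fat diet and 1958 ± 159 on chow, a log2 fold change of -0.03 with a 95% interval from -0.36 to 0.31.

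**Figure D2:**
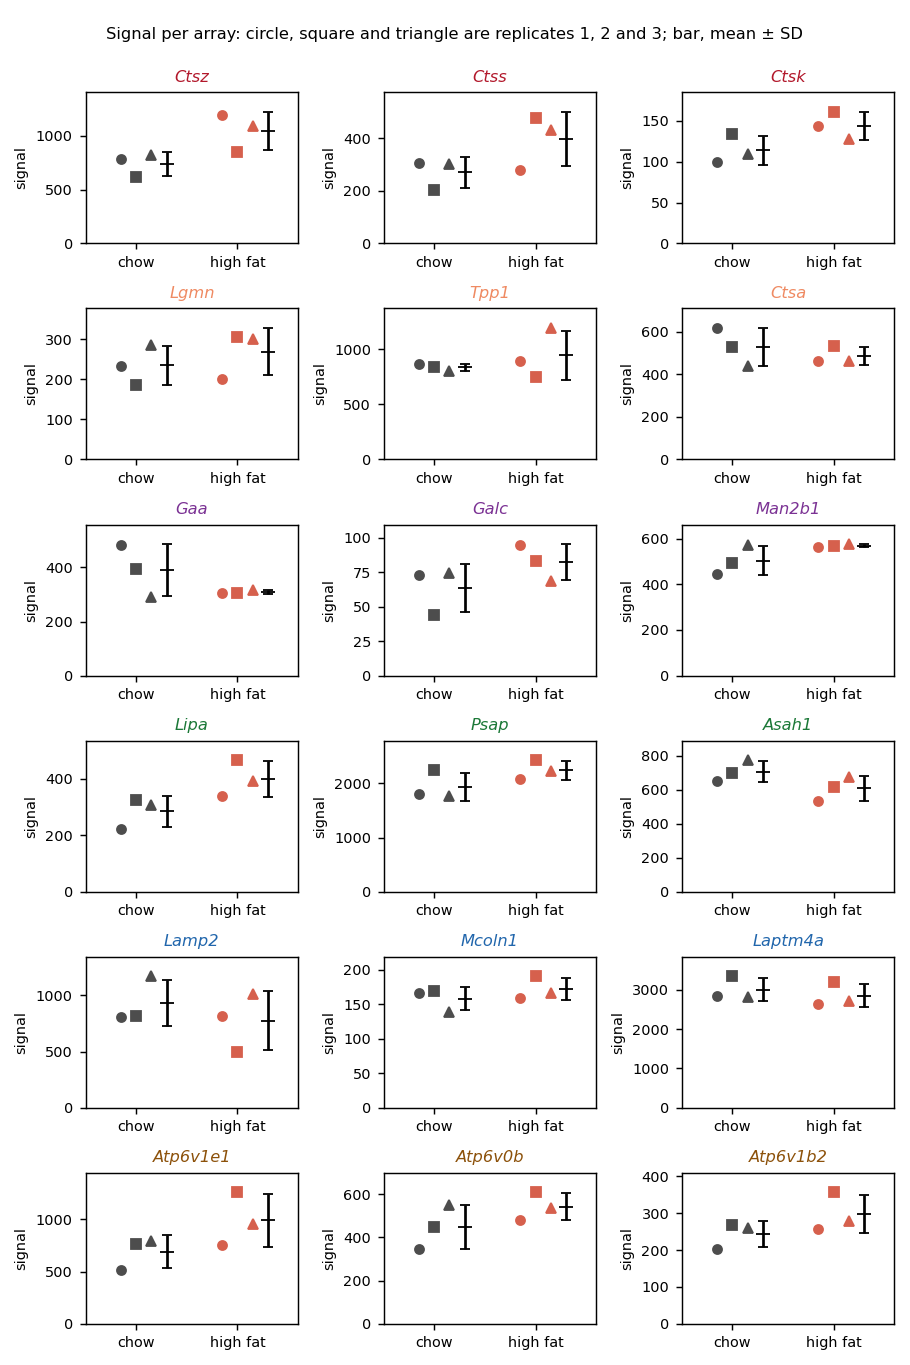
The signal of each array on a linear axis from 0 is plotted by diet for the 3 genes of smallest p in each of the 6 role groups. Circles, squares and triangles are replicates 1, 2 and 3, and the bar beside them is the mean with its SD over 3 pools. For Ctsz and Lipa all high fat points lie above all chow points. In the other 16 panels the diets overlap.

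The glycosidases, which take sugars off glycoproteins, glycolipids and glycogen, had higher means for 7 of 9 genes and a middle log2 fold change of 0.08. Leaving out high fat replicates 1 and 2 in turn gave 0.15 and 0.03, leaving out chow replicate 2 gave 0.12, and equal array medians gave 0.03. None of the 8 that passed the filter had an unadjusted p under 0.05 in limma. Gaa, the acid alpha-glucosidase that degrades lysosomal glycogen, had 304, 307 and 317 on high fat diet and 484, 394 and 291.5 on chow. The high fat arrays were close together, the chow arrays fell on both sides of them, and the log2 fold change was -0.30 (limma SE 0.18, adjusted p = 0.786). A second Gaa probe set had -0.07. The log2 fold change was -0.13 without chow replicate 1 and -0.49 without chow replicate 3, and -0.19 with both probe sets averaged.

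Galc, which removes galactose from a myelin lipid, had 94.7, 83.1 and 68.7 against 72.7, 43.7 and 74.1, a log2 fold change of 0.37 (limma SE 0.24, adjusted p = 0.797). Chow replicate 2 was the lowest array, and without it the log2 fold change was 0.14. Man2b1, the alpha-mannosidase, had 563, 568 and 575 on high fat diet and 445, 494 and 571.5 on chow, a log2 fold change of 0.18 (limma SE 0.14, adjusted p = 0.827) that was 0.10 without chow replicate 1 and 0.27 without chow replicate 3.

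The other glycosidases had log2 fold changes between -0.03 and 0.10. These were Neu1, the sialidase, at 0.10, Glb1, the beta-galactosidase, at 0.08, Hexa, a subunit of beta-hexosaminidase, at 0.07, Manba, the beta-mannosidase, at 0.07 and Gusb, the beta-glucuronidase, at -0.03. A further Neu1 probe set of similar signal had -0.002. Gla, the alpha-galactosidase, had signals from 20.1 to 26.3 on the 6 arrays and was not tested.

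Genes that handle lipid were split, 4 with higher and 3 with lower means on high fat diet, and their median log2 fold change of 0.05 was -0.06 when probe sets with the plain ending _at were preferred, the value of the other Npc2 probe set, and -0.02 without chow replicate 1. Lipa encodes the lysosomal acid lipase, which splits cholesteryl esters and triglycerides of ingested lipoproteins. Its signals were 339, 466 and 392.5 on high fat diet and 223, 324 and 307 on chow. No high fat array was below a chow array, although high fat replicate 1 and chow replicate 2 were close. The means were 399 ± 64.0 and 285 ± 53.7, a log2 fold change of 0.48 (limma SE 0.18, adjusted p = 0.632), and the other 2 probe sets had 0.55 and 0.26. Without chow replicate 1 it was 0.32.

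Psap encodes the precursor of the saposins, small proteins that present sphingolipids to the hydrolases. It had 2075, 2427 and 2224 on high fat diet and 1803.5, 2242 and 1767 on chow, with chow replicate 2 inside the high fat range. The log2 fold change was 0.22 (limma SE 0.13, adjusted p = 0.786), and a second probe set had 0.11. Leaving out an array gave from 0.15 without chow replicate 3 to 0.32 without chow replicate 2. Asah1, the acid ceramidase, had a lower mean on high fat diet, with 532, 615 and 676 against 648, 697 and 772. Its log2 fold change was -0.22 (limma SE 0.14, adjusted p = 0.798), with high fat replicate 3 above chow replicate 1, and it was -0.12 without high fat replicate 1.

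The pair of proteins that export cholesterol from the lysosome had means that differed in opposite directions. Npc2, the soluble carrier, had 2197 ± 452 on high fat diet and 2031 ± 276 on chow, a log2 fold change of 0.10, and its second probe set had -0.06. Npc1, the membrane transporter, had 63.4 ± 2.4 and 72.8 ± 13.1, a log2 fold change of -0.17. The difference between these genes was not tested. Smpd1, the acid sphingomyelinase, had -0.20, and high fat replicate 3, at 545.5, stood below the other 5 arrays, which lay between 801 and 872. Ppt1, which removes fatty acids from proteins, had 0.05.

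Membrane proteins of the lysosome had lower means for 3 of 5 genes, with a median log2 fold change of -0.07, which became 0.002 without chow replicate 2. Lamp1 and Lamp2 are the most abundant proteins of that membrane, and Lamp2 also takes part in the uptake of cytosolic proteins. Lamp2 had 820.1, 494 and 1009 on high fat diet and 811, 819 and 1169 on chow, a log2 fold change of -0.31 (limma SE 0.24, adjusted p = 0.836). High fat replicate 2 was the low array, and without it the log2 fold change was -0.02, while dropping high fat replicate 3 gave -0.53 and dropping chow replicate 3 gave -0.13. The 4 Lamp2 probe sets disagreed: besides -0.31, they had -0.69 (unadjusted p = 0.026, adjusted p = 0.633, limma), -0.12 and 0.03. Lamp1 had 2675 ± 118 and 2599 ± 313, a log2 fold change of 0.05 with a 95% interval from -0.22 to 0.32.

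Mcoln1, a calcium channel of the lysosome, had 159, 190.2 and 166 on high fat diet and 166, 168.5 and 138 on chow, a log2 fold change of 0.12 (limma SE 0.16, adjusted p = 0.896) that dropping high fat replicate 2 brought to 0.05 and dropping chow replicate 3 to 0.04. Laptm4a, a transporter-like membrane protein, had 2651, 3189 and 2724 against 2854, 3343 and 2827, a log2 fold change of -0.08 (limma SE 0.12, adjusted p = 0.916) that ran from -0.16 without high fat replicate 2 to 0.002 without chow replicate 2. Scarb2, the receptor that carries glucocerebrosidase to the lysosome, had -0.07. In each of these genes the diets overlapped.

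The proton pump is built of a cytosolic V1 sector that splits ATP and a V0 sector in the membrane that passes the protons. Subunits of one complex did not share a direction in their means: 5 of 9 had higher and 4 lower means with high fat feeding, and their log2 fold changes had a median of 0.16, which was 0.06 without high fat replicate 3 and 0.02 when all probe sets of a gene were averaged. Atp6v1e1, a stalk subunit of V1, had 759, 1258 and 957 on high fat diet and 516, 769 and 793 on chow. High fat replicate 2 was the highest and chow replicate 1 the lowest array, and high fat replicate 1 lay within the chow range. The log2 fold change was 0.51 (limma SE 0.21, adjusted p = 0.676). Leaving out high fat replicate 2 gave 0.32, leaving out chow replicate 1 gave 0.31 and averaging all probe sets gave 0.27, each without an unadjusted p under 0.05. Leaving out the other arrays in turn gave from 0.52 without high fat replicate 3 to 0.69 without high fat replicate 1. The 3 probe sets of this gene disagreed. A second had a log2 fold change of 0.9995 without passing the test (limma SE 0.50, adjusted p = 0.744). This was also the value of the gene when plain _at probe sets were preferred. The third, below the filter, had -0.70 and no overlap between the diets.

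Atp6v0b, a proteolipid of the V0 ring, had 482, 608 and 537 on high fat diet and 346, 448 and 552 on chow, a log2 fold change of 0.29 (limma SE 0.18, adjusted p = 0.786). Further probe sets of the gene gave 0.11 and -0.01. The log2 fold change was 0.12 without chow replicate 1, 0.45 without chow replicate 3 and 0.13 with all probe sets averaged. Atp6v1b2, an ATP-binding subunit, had 257, 356 and 279.6 against 203, 268 and 261, a log2 fold change of 0.28 (limma SE 0.18, adjusted p = 0.793). Further probe sets of the gene gave 0.23 and 0.28, the latter below the filter. Leaving out high fat replicate 2 or chow replicate 1 gave 0.14 and 0.15. As for Atp6v1e1, high fat replicate 2 was the highest and chow replicate 1 the lowest array for both.

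Atp6v1a, the catalytic subunit, which pairs with the product of Atp6v1b2 in the ATP-splitting head, had 352 ± 76.5 on high fat diet and 412 ± 80.9 on chow, a log2 fold change of -0.23, and a second probe set had 0.03. Atp6v0d1, which links the sectors, had 469.8, 430.2 and 433 against 492, 511 and 477, without overlap. Its log2 fold change was -0.15 (limma SE 0.13, adjusted p = 0.851), with a 95% interval from -0.44 to 0.14. Atp6v0a1, in the proton path, had 0.19, but its probe sets disagreed. A second one of similar signal had -0.02, and those below the filter had -0.34 and 0.25. Atp6v1h, which joins the head to the membrane sector, had 0.16, the rotor subunit Atp6v1d had -0.02 and the accessory protein Atp6ap1 had -0.03.

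**Figure D3:**
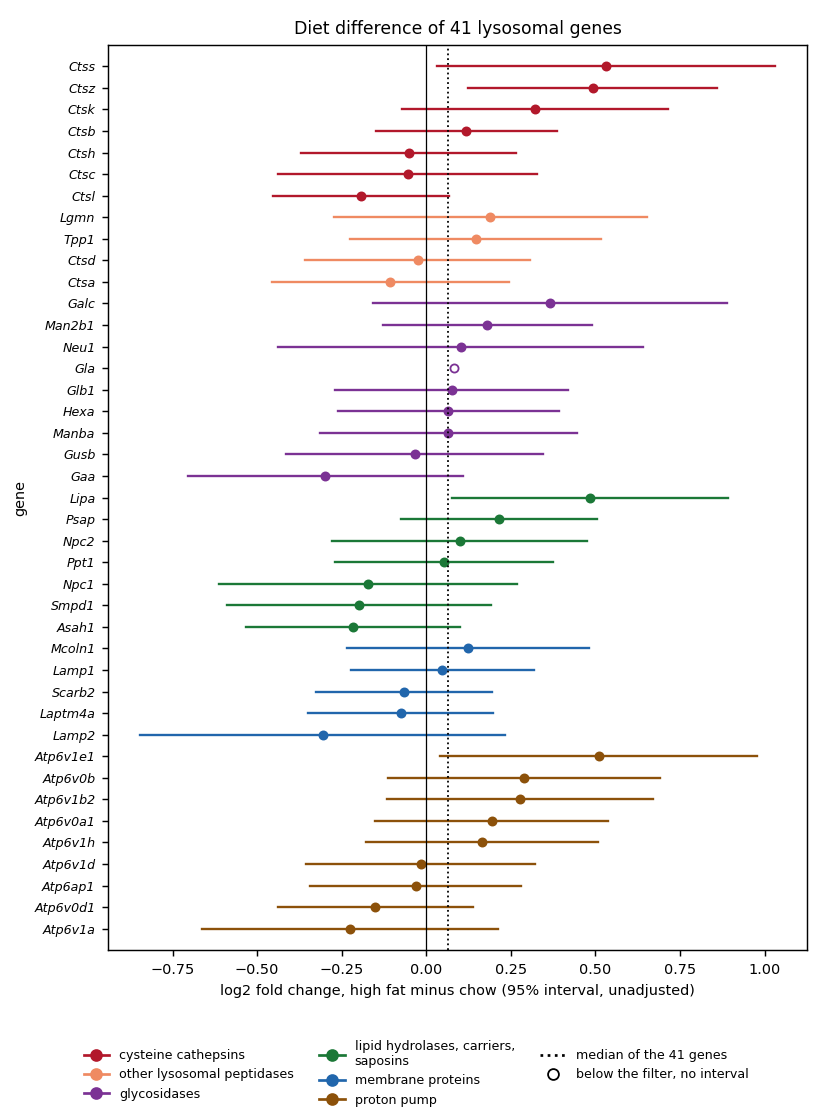
Log2 fold changes (high fat minus chow, horizontal axis) are plotted for the 41 lysosomal genes, coloured by role, with 95% intervals from limma that are not adjusted for multiple testing. The open circle is Gla, below the filter. The intervals of Ctss, Ctsz, Lipa and Atp6v1e1 lie above 0, and the dotted line marks the median of 0.07.

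Genes with the CACGTG core did not stand on one side. Of the 12, 6 had higher and 6 lower means with high fat feeding, and their log2 fold changes had a median of 0.01 and a range from -0.30 for Gaa to 0.29 for Atp6v0b. Those with the longer palindrome, Ctsa, Ctsd, Gla, Mcoln1, Atp6v0d1 and Atp6v1a, had a median of -0.07. Of the 23 genes whose window held no match, 15 had higher means, the median was 0.10, and the 4 genes of unadjusted p under 0.05 were among them. Of all genes tested, 50.9% had a higher mean and 4.28% had such a p in limma in that direction. The difference between the genes with and without the core was not tested.

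Other lysosomal genes outside the list were summarised in the same way. Of 70 such genes, 55 had a probe set and 47 passed the filter. None passed an adjusted p of 0.05 in limma. At an unadjusted p under 0.05, 2 of the 47 had a higher mean on high fat diet (4.26%), against 4.28% of all genes tested. With a lower mean there was 1, where 2.7% of all genes had such a p. These shares were not above the background. The median log2 fold change of the 55 was -0.01. Of 24 other hydrolases and cofactors, 9 had higher means. The smallest p-values among them were those of Hgsnat, a transferase of heparan sulphate breakdown, and Man2b2, a mannosidase, with log2 fold changes of -0.24 and 0.36. Man2b2 had 89.8 on high fat replicate 2, while the other arrays lay between 43.7 and 54.0.

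Of 10 other membrane proteins 6 had higher means. Laptm5, a lysosomal protein of blood cells, had 314 ± 76.9 on high fat diet and 199 ± 30.7 on chow, a log2 fold change of 0.63 (limma SE 0.20, adjusted p = 0.518), without overlap. Cd68, a lysosomal glycoprotein used as a macrophage marker, had 76.7, 123.9 and 108.4 against 78.7, 52.4 and 53.0, a log2 fold change of 0.69 (limma SE 0.23, adjusted p = 0.580). Of 10 other pump subunits 5 had higher means, and Tcirg1, the subunit typical of osteoclasts, and Atp6v0a2 had 0.37 and 0.24. Tcirg1 had 176.7 on high fat replicate 2, while the other arrays lay between 86.2 and 95.3.

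Sorting receptors and their enzymes had log2 fold changes between -0.07 and 0.13, and those of smallest p were Igf2r, the mannose 6-phosphate receptor of the Golgi, at 0.13 and Sort1, sortilin, at 0.07. Among 4 cathepsin inhibitors, Serpinb6a, a serpin, had 623 ± 81.1 on high fat diet and 785 ± 25.6 on chow, a log2 fold change of -0.34 (unadjusted p = 0.0334, adjusted p = 0.666, limma). Cst3, cystatin C, the main secreted inhibitor of cysteine cathepsins, had 4754 ± 179 and 4583 ± 570, a log2 fold change of 0.06. Mitf and Tfeb, transcription factors of lysosomal genes, had -0.14 and -0.11.

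Markers of macrophages, cells rich in lysosomes, had higher means on high fat diet for most genes. Of 22 marker genes 19 had higher means with high fat feeding, and the log2 fold changes had a median of 0.50. In limma 9 of the 17 that passed the filter had an unadjusted p under 0.05, all higher, where 4.28% of all genes tested did. None passed the adjustment. Adgre1, the F4/80 antigen, had 228 ± 67.1 against 129 ± 5.8, and Csf1r, the receptor for macrophage growth factor, had 1429 ± 311 against 988 ± 106. The 3 with lower means were Cd14, Cx3cr1 and Ccr2. Cd14 had 133 ± 11.6 against 167 ± 23.0, without overlap. Cx3cr1 and Ccr2 were below the filter, with log2 fold changes of -0.70 and -0.29. The summed signal of the 22 marker genes ran from 5285 to 7854 on high fat diet and from 3570 to 5268 on chow. The mean log2 deviation of the macrophage list from its 6-array mean was -0.09, 0.43 and 0.25 on high fat replicates 1, 2 and 3 and -0.04, -0.44 and -0.12 on chow replicates 1, 2 and 3.

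High fat replicate 2 and then 3 were the highest arrays of that list and chow replicate 2 the lowest, and Ctss was highest and lowest on the same arrays. Ctsz and Lipa were not ordered so: Ctsz was highest on high fat replicate 1, with high fat replicate 2 its lowest high fat array, and Lipa was lowest on chow replicate 1. The cysteine cathepsins as a group had mean deviations of 0.00, 0.09 and 0.16 on high fat diet and -0.05, -0.17 and -0.03 on chow, so chow replicate 2 was the lowest array there too. For the proton pump the deviations were -0.02, 0.08 and 0.10 on high fat diet and -0.14, -0.03 and 0.00 on chow, so the lowest array was chow replicate 1. Brown adipocyte markers were higher for 8 of 8 genes, with a summed signal from 10351 to 12559 on high fat diet and from 6724 to 8875 on chow. Endothelial markers were higher for 7 of 8 genes, 4 of them without overlap, where 6.79% of all genes tested were higher without overlap. They had a median log2 fold change of 0.33 and mean deviations of 0.24, 0.30 and 0.02 on high fat diet and -0.17, -0.18 and -0.20 on chow. Their smallest adjusted p in limma was that of Cldn5, a junction protein, at 0.0873. Cardiac muscle markers had mean deviations of -1.18, 1.27 and 0.94 against -0.17, 0.25 and -1.11. The part of these cell types in the lysosomal values was not tested.

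**Figure D4:**
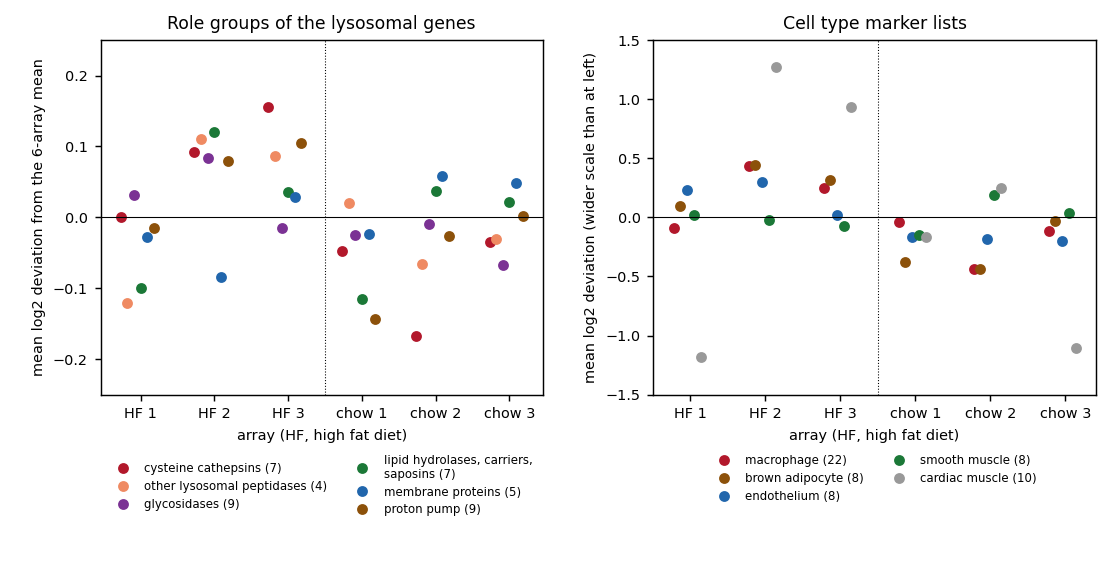
Points give, for each of the 6 arrays, the mean over a list of log2(signal + 6) minus its 6-array mean. The left panel shows the 6 role groups of the lysosomal genes, which stay between -0.17 and 0.16, and the right panel 5 cell type marker lists on a wider scale. The number of genes in each list is in brackets. Macrophage markers lie highest on high fat replicate 2 and lowest on chow replicate 2.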

How the data were processed

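Aorta RNA was hybridised to 6 arrays, 3 pools per diet. The deposited values are linear signal intensities of probe sets made with MAS5, per the submitters' processing notes, with no version or settings stated there. Every array had a 2% trimmed mean of 150.05, so the scaling was kept. Signals under 50 made up 42.0% to 46.3%.

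Of 22690 probe sets 64 were controls. The platform annotation gave 1 symbol to 20380, several to 691 and none to 1555. All 41 lysosomal genes matched the RefSeq gene table by gene ID. Suffixed probe sets (_s_at, _x_at), such as those of Lipa, Atp6v1e1 and Atp6v0b and the further ones of Ctsz, can bind related transcripts.

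Values were log2(signal + 6). Probe sets with a mean over the 40th percentile, 40.7 as a signal, entered limma 3.58.1 under R 4.3.3 (eBayes with trend, two-sided, Benjamini-Hochberg). The number of arrays limits precision. P-values rest on the spread between independent pools, with the variance of each probe set drawn towards a trend over all probe sets tested.

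Members and lists were chosen with earlier results of these data known. Array values are given for the 3 genes of smallest p in each role group, and the 2 of smallest p stand for each list of other lysosomal genes. Ctsl, Atp6v0d1 and Smpd1 were added once their values had been seen. Alternatives changed the pseudocount, filter, normalization, variance trend, probe set choice, replicate block and arrays. The run of these on the other lysosomal genes was chosen after seeing the data.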

Additional observations from a re-analysis of the deposited data

How the results depend on the processing

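No lysosomal gene passed an adjusted p of 0.05 in limma in any of 16 alternatives, nor did a gene of the other lysosomal lists. The adjusted p of Ctss ran from 0.323 to 0.999, that of Ctsz from 0.363 to 0.910, that of Lipa from 0.400 to 0.999 and that of Atp6v1e1 from 0.358 to 0.999. The 4 genes higher at an unadjusted p under 0.05 became 2 with equal medians and 2 without the variance trend, and 1 to 5 when an array was left out, with 2.61% to 5.2% of all genes. Those lower numbered 0 to 1 when an array was left out. Genes without overlap numbered 1 higher with equal medians (5.24% of all genes tested) and 1 lower with quantile normalization (5.86%). When an array was left out they numbered 3 to 9 higher and 3 to 4 lower, since fewer arrays must then be separated. Of all genes tested 9.54% to 15.6% were then separated on the higher side and 9.08% to 12.7% on the lower side. The median log2 fold change of the 41 genes was 0.021 with equal medians and 0.013 to 0.12 when an array was left out. That of the cysteine cathepsins was -0.027 with averaged probe sets, and that of the lipid group -0.060 with plain _at probe sets preferred, where Npc2 was read from another probe set than its _a_at one. Leaving out an array gave -0.043 to 0.095 for the other peptidases, -0.094 to 0.0024 for the membrane proteins, -0.034 to 0.30 for Tpp1, -0.23 to 0.011 for Ctsa and -0.16 to 0.0024 for Laptm4a. The cause was not tested where none is given.

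With the replicate block the 4 genes numbered 4 again, and the adjusted p of Ctsz was 0.415. No call among the lysosomal genes changed. The block lowered the limma SE of Ctsz from 0.17 to 0.13, of Lipa from 0.18 to 0.14 and of Atp6v1e1 from 0.21 to 0.14, while that of Ctss stayed at 0.23. Same-numbered arrays had correlations of deviations of 0.03, 0.17 and -0.11. With 3 arrays per diet these cannot show whether the numbers pair the pools. Among all pairs of 1 high fat and 1 chow array, the correlation ran from -0.16 to 0.17. With equal medians the median of all genes tested went from 0.0050 to -0.040, beside the 0.066 to 0.021 of the lysosomal genes. With 3 pools per diet the intervals are wide, and small changes were not detectable.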
